A study of Mus musculus with 9 samples.

Results

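The cells described here are inhibitory neurons of the mouse central amygdala that carried Nr2f2 and lacked the 5 genes by which neurons of this nucleus are commonly sorted: the protein kinase C gene Prkcd and the neuropeptide genes Sst (for somatostatin), Crh (for the releasing hormone of corticotropin), Tac2 (for neurokinin B) and Nts (for neurotensin). They were 58 of the 829 cells deposited and 58 of the 810 cells classed as inhibitory. A cell was called positive for a gene at 1 count or more per 10000 of its gene counts. Inhibitory cells were positive for Gad1, Gad2 or Slc32a1 and negative for Slc17a6 and Slc17a7, and the 58 cells were those that were also positive for Nr2f2 and negative for all 5 markers. The cells were thus selected on the measured levels of these 11 genes, so their values are given as a description and without a test. The cells came from wild-type B6 mice with no treatment named, were microdissected and dissociated from acute slices and pooled across them, and formed 9 samples of 1 group. The samples combined 3 animal numbers with 3 date fields, each combination once, and since no source names 9 separate animals, p-values measure the spread between these samples.

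Nr2f2 encodes COUP-TFII, an orphan nuclear receptor and transcription factor that binds repeats of the motif AGGTCA, alone or paired with its close relative Nr2f1 (COUP-TFI). Both act in forebrain development, where COUP-TFII is known from cells of the caudal ganglionic eminence and from neurons that settle in the amygdala. The central amygdala consists mainly of GABAergic projection and local neurons and is known for its role in fear learning, pain and food intake. Dlk1 encodes a membrane protein related to the Notch ligands, from an imprinted locus, and Oprk1 encodes the kappa opioid receptor, the receptor of dynorphins.

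The promoters of 3 genes that differed with Nr2f2 are printed because the factor's motif can be looked for in them. Each is the window from 250 bases before to 50 bases after an annotated start, taken from RefSeq (GRCm38.p6) and not from the build of the counts. Capitals mark AGGTCA read on the opposite strand, TGACCT. The Dlk1 window is chr12:109452573-109452872 on the plus strand, that of Arpp21 is chr9:112217212-112217511 on the minus strand, 1 of 9 windows of that gene, and that of Pcp4 is chr16:96467356-96467655 on the plus strand.
Dlk1: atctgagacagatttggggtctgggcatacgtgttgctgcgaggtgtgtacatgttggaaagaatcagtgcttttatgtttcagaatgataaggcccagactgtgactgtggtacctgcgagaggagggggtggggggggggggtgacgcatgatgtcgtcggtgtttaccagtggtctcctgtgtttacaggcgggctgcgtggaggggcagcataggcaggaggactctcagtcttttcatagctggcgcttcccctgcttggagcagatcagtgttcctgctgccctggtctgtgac
Arpp21: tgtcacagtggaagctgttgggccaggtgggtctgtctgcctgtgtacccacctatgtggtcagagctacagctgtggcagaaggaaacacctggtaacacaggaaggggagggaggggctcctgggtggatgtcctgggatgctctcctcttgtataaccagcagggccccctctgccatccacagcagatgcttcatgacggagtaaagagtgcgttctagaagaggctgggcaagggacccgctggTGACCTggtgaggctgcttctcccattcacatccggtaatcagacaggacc
Pcp4: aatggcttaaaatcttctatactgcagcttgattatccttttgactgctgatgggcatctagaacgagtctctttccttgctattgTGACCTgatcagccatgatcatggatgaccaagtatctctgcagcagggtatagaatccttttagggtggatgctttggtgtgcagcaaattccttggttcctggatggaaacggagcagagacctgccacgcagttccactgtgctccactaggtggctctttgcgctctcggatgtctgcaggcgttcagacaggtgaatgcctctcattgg
The Dlk1 window held no match on either strand, and the Arpp21 and Pcp4 windows held 1 each. Of the 18 genes that passed the test described below, 15 had a window in the table, 29 windows in all, and 2 of the 15, Arpp21 and Pcp4, held AGGTCA on either strand. Over the 27025 genes of the table the share was 18.1%, and over its 32851 windows 16.3%.

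The 58 cells, called Nr2f2+ no-marker neurons below, were spread over all 9 samples, with 4 to 11 cells in each. They made up 7.27% ± 3.17 of the inhibitory neurons of a sample (mean ± SD, n = 9), with a lowest share of 4.21%, a median of 6.45% and a highest of 12.8%. The share went with the date field. It was 4.21, 4.35 and 4.30% in the samples of date field 1, and 6.32, 6.45 and 7.78% in those of date field 2. In date field 3 it was 7.32, 12.8 and 11.9%, and the cause was not tested. Of the inhibitory neurons positive for Nr2f2, 116 in all, 30.8% in the lowest, 54.5% in the median and 64.7% in the highest sample lacked every marker. The comparison set was the 208 Nr2f2-negative inhibitory neurons that also lacked all 5 markers, called Nr2f2- no-marker neurons, with 14 to 32 cells per sample. The class that shares Nr2f2 was the 58 Nr2f2-positive inhibitory neurons with a marker (Nr2f2+ marker neurons), and 486 inhibitory neurons had a marker and no Nr2f2 (Nr2f2- marker neurons). Counts of the cells of 1 class in 1 sample were summed and scaled to the same library total (CPM), so that the 9 samples, not the cells, were the replicates.

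Nr2f2 itself had 230, 376 and 469 CPM (lowest, median and highest sample) in Nr2f2+ no-marker neurons, against 0, 6.09 and 12.5 CPM in Nr2f2- no-marker neurons. At the boundary, the 3 Nr2f2-positive cells with the least Nr2f2 had 1.01, 1.11 and 1.19 counts per 10000, and the 3 Nr2f2-negative cells with the most had 0.954, 0.932 and 0.899. Of the 58 cells, 38 had at least 1 count of a classical marker, and the highest level of any marker was 0.562 per 10000. Gad1, which encodes a GABA-making enzyme, was positive in 56 of the 58 cells and 173 of the 208 Nr2f2- no-marker neurons, and Gad2 in 54 and 204. The vesicular glutamate transporters Slc17a6 and Slc17a7 had 0 counts in all 58.

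The other 3 genes proposed as marks of these cells were also more often positive in them. Nr2f1 was positive in 33 of 58 Nr2f2+ no-marker neurons and 54 of 208 Nr2f2- no-marker neurons. Dlk1 was positive in 35 and 49 cells, and Oprk1 in 17 and 16. Of Nr2f1, Dlk1 and Oprk1, Nr2f2+ no-marker neurons were positive for none in 8 cells, for 1 in 20, for 2 in 25 and for all 3 in 5, against 110, 79, 17 and 2 Nr2f2- no-marker neurons. Few cells thus carried the whole set. These genes were chosen with earlier results of these data known, so their shares describe the label and do not test it. In Nr2f2+ marker neurons Nr2f1 was positive in 24, Dlk1 in 14 and Oprk1 in 10 of 58 cells. Of these neurons 21 were positive for none of the 3, 26 for 1, 11 for 2 and 0 for all 3. Within the 58 cells Nr2f1 and Dlk1 were both positive in 21 cells, where independence would give 19.9, and Dlk1 and Oprk1 in 9, where it would give 10.3. Oprk1 and Sox5 were both positive in 9 cells, where it would give 5.28, and Oprk1 and Crabp1 in 13, where it would give 8.21. Dlk1 and Sox5 were both positive in 15 cells, where it would give 10.9, and Dlk1 and Crabp1 in 19, where it would give 16.9.

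Defining markers of several other cell types had no count, while some genes of those lists were present. In Nr2f2+ no-marker neurons 0 counts were found of Chat and Slc5a7 (cholinergic neurons), of Neurod6, Tbr1 and Neurod2 (excitatory neurons), of C1qa, C1qb, Cx3cr1 and Tyrobp (microglia) and of Aqp4, Gfap, Aldh1l1 and Slc1a3 (astrocytes). A count of 0 positive cells of 58 allows a share of positive cells of up to 6.16% (exact 95% binomial interval, counting error only). Of the same lists, Aldoc (astrocytes) was positive in 22 of 58 Nr2f2+ no-marker neurons and 52 of 208 Nr2f2- no-marker neurons, and Itm2a (endothelial cells) in 16 and 58, while Cldn5 and Pecam1 (endothelial cells) had 0 counts in the 58. Among genes of interneurons from the medial ganglionic eminence, Lhx6, Sox6, Satb1, Pvalb and Nkx2-1 were at 0, 5 of 8 genes, and the summed level of the list was 0 to 88.2 CPM per sample, against 16.3 to 111 CPM in Nr2f2- no-marker neurons. Genes of interneurons from the caudal ganglionic eminence, 10 in all, were present in part, with a summed level of 93.0 to 728 CPM (median 376) in Nr2f2+ no-marker neurons, against 210 to 652 CPM (median 444) in Nr2f2- no-marker neurons. Cnr1 was positive in 19 of 58 and 31 of 208 cells, 6330527O06Rik in 12 and 108, Cck in 10 and 44, Calb2 in 7 and 21, and Sp8 in 5 and 1. Prox1 was positive in 2 and 2 cells, Adarb2 in 1 and 3, Reln in 1 and 15, and Npas1 in 0 and 2. The part of such cells in the differences below was not tested. Of the intercalated-cell genes, Foxp2 and Tshz1 were positive in 0 of 58 cells, against 11 and 9 of 208, and Pax6 was positive in 13, against 30. Summed oligodendrocyte genes reached 0 to 273 CPM in Nr2f2+ no-marker neurons and 53.0 to 12659 CPM in Nr2f2- no-marker neurons.

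No difference in depth per cell passed a test. The median cell had 110430 gene counts and 4373 detected genes among Nr2f2+ no-marker neurons, against 128456 counts and 4536 genes among Nr2f2- no-marker neurons. The log10 counts per cell averaged 5.06 ± 0.16 and 5.09 ± 0.12 (SD, n = 9; exact two-sided sign-flip permutation p = 0.461, adjusted over 3 measures 0.691). At 50000 thinned counts per cell, the 56 and 204 cells deep enough had 3907 ± 192 and 4044 ± 144 detected genes (n = 9, exact permutation p = 0.230, adjusted 0.691). Of all cells of both classes, without thinning, 20.2% ± 27.2 and 17.8% ± 8.91 were positive for Mbp, a myelin gene (n = 9, exact permutation p = 0.859, adjusted 0.859). The share of mitochondrial counts was 4.07% ± 0.80 in Nr2f2+ no-marker neurons and 3.35% ± 0.47 in Nr2f2- no-marker neurons, higher in 8 of 9 samples, and its part in the differences below was not tested.

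Against Nr2f2- no-marker neurons, the Nr2f2+ no-marker neurons had more Dlk1 and less of 17 other genes, among them Arpp21, Ppp1r1b, Pcp4, Gnal, Gnas and Wfs1. Nr2f1 and Oprk1 were higher in all 9 samples and did not pass. The summed counts were tested in edgeR (quasi-likelihood test, sample as a block), with p-values adjusted by Benjamini-Hochberg over the 9051 genes tested and a threshold of 0.05. On the higher side 1 gene passed (0.011%) and on the lower side 17 (0.188%), 18 in all (0.199%), while 116 (1.28%) and 767 (8.47%) had an unadjusted p under 0.05. The median log2 fold change of all genes tested was -0.37, so changes near that size are not changes relative to the other genes. With equal numbers of cells in both classes that median was -0.06, and 0 genes passed as higher and 1, Arpp21, as lower.

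Dlk1 had 93.5, 258 and 414 CPM (lowest, median and highest sample) in Nr2f2+ no-marker neurons, against 57.3, 73.1 and 111 CPM in Nr2f2- no-marker neurons. In 8 of 9 samples the Nr2f2+ level lay above the highest Nr2f2- level of any sample, and within each sample it was the higher of both. The log2 fold change was 1.44 ± 0.25 (SE; edgeR adjusted p = 0.0330). It was 1.83, 1.08 and 1.66 within the 3 date fields and 1.72, 0.84 and 1.78 within the 3 animal numbers, as differences of log2(CPM + 1). The adjusted p stayed under 0.05 only without sample 2 or without sample 5 when 1 sample was left out, and was highest, at 0.109, without sample 6.

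Nr2f1 had 116, 161 and 238 CPM in Nr2f2+ no-marker neurons, against 28.2, 64.3 and 137 CPM in Nr2f2- no-marker neurons, with 7 of 9 levels above the highest Nr2f2- level (log2 fold change 1.15 ± 0.27, edgeR adjusted p = 0.114). Oprk1 had 25.3, 94.9 and 215 CPM, against 0, 27.2 and 45.5 CPM, again with 7 of 9 levels above that range (2.13 ± 0.62, adjusted p = 0.259). Of the 9051 genes tested, 26 (0.287%) were higher in 9 of 9 samples, and Dlk1, Nr2f1 and Oprk1 were among them. Dlk1, Nr2f1 and Oprk1 were chosen with earlier results of these data known. Their place among the 26 therefore describes them and does not test them. Several further genes are given because of their values. Sox5, a transcription factor of neuronal differentiation, had 65.7, 105 and 186 CPM in Nr2f2+ no-marker neurons, against 17.3, 31.8 and 68.5 CPM in Nr2f2- no-marker neurons (1.75 ± 0.41, edgeR adjusted p = 0.115). Ncald, a neuronal calcium sensor, had 363, 475 and 717 CPM, against 205, 266 and 363 CPM (0.86 ± 0.17, edgeR adjusted p = 0.0603). Both were higher in 9 of 9 samples, and neither passed.

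**Figure D1:**
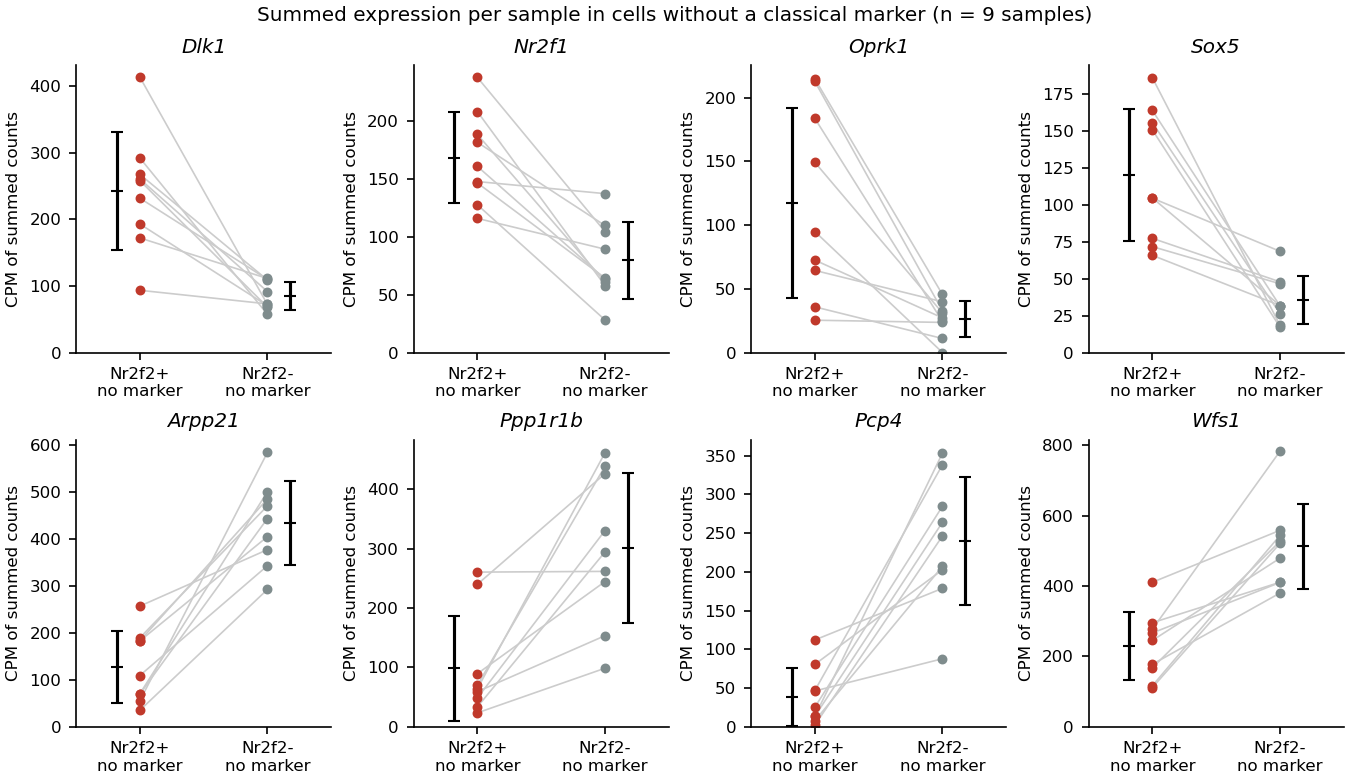
CPM of summed counts (vertical axes, linear from 0) per sample in Nr2f2+ no-marker neurons (left, red) and Nr2f2- no-marker neurons (right, grey), with lines joining the classes of 1 sample and bars giving mean ± SD over 9 samples. Dlk1, Nr2f1, Oprk1 and Sox5 were higher in the Nr2f2+ class in all 9 samples and Arpp21, Ppp1r1b, Pcp4 and Wfs1 lower, and the ranges do not overlap for Arpp21.

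Of the genes that passed as lower, those for G proteins, kinase anchoring and phosphatase control come first. Arpp21, a cAMP-regulated phosphoprotein, had 35.1, 109 and 257 CPM in Nr2f2+ no-marker neurons, against 293, 444 and 585 CPM in Nr2f2- no-marker neurons. The ranges did not overlap, and the gene was positive in 19 of 58 and 137 of 208 cells (log2 fold change -2.01 ± 0.28, edgeR adjusted p = 0.0186). Ppp1r1b, which encodes DARPP-32, an inhibitor of protein phosphatase 1 in striatal projection neurons, had 23.4, 63.9 and 260 CPM, against 98.5, 294 and 461 CPM (-1.93 ± 0.32, adjusted p = 0.0269). Gnal, the G protein alpha subunit that couples dopamine and adenosine receptors to adenylyl cyclase, had 6.30, 48.4 and 168 CPM, against 151, 204 and 287 CPM (-2.17 ± 0.39, adjusted p = 0.0330). Its relative Gnas, the stimulatory alpha subunit, had 633, 842 and 1676 CPM, against 1367, 1736 and 2158 CPM (-0.97 ± 0.16, adjusted p = 0.0269). Akap5, an anchor of protein kinase A, had 12.8, 33.4 and 130.5 CPM, against 82.6, 128 and 252 CPM (-1.78 ± 0.34, adjusted p = 0.0469). Each of these was lower in 9 of 9 samples, and the highest Nr2f2+ sample reached into the Nr2f2- range for all of them but Arpp21.

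Genes of calcium handling and vesicle release were next. Pcp4, a small protein that binds calmodulin, had 2.13, 25.3 and 112 CPM in Nr2f2+ no-marker neurons, against 87.8, 246 and 353 CPM in Nr2f2- no-marker neurons, and was positive in 7 of 58 and 81 of 208 cells (log2 fold change -3.10 ± 0.56, edgeR adjusted p = 0.0330). Atp2b1, a calcium pump of the plasma membrane, averaged 456 ± 170 and 949 ± 154 CPM (SD, n = 9; -1.16 ± 0.22, adjusted p = 0.0455). Wfs1, a membrane protein of the endoplasmic reticulum, averaged 230 ± 96.3 and 512 ± 120 CPM (-1.26 ± 0.21, adjusted p = 0.0269). Syt4, a member of the synaptotagmin family, averaged 170 ± 116 and 433 ± 146 CPM and was lower in 8 of 9 samples (-1.60 ± 0.28, adjusted p = 0.0330). Cadps2, which acts in the release of dense-core vesicles, had 0, 0 and 12.2 CPM in Nr2f2+ no-marker neurons, from 17 counts in all, against 18.8, 55.7 and 80.8 CPM (-6.29 ± 1.08, adjusted p = 0.0316).

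The next 6 genes were positive in at most 7 of the 58 cells. Gpr101, an orphan receptor, was positive in 4 of 58 Nr2f2+ and 64 of 208 Nr2f2- no-marker neurons and had 0, 1.94 and 58.6 CPM, against 73.1, 93.9 and 177 CPM (log2 fold change -4.79 ± 0.89, edgeR adjusted p = 0.0418). Mpped1 was positive in 7 and 81 cells (-3.24 ± 0.61, adjusted p = 0.0455), and Lhfpl5, known from the mechanotransduction channel of hair cells, in 0 and 16 (-5.44 ± 1.03, adjusted p = 0.0455). Man1a, a mannosidase of the Golgi, was positive in 1 and 28 cells, with 6 counts in all in Nr2f2+ no-marker neurons (-6.77 ± 1.02, adjusted p = 0.0186). Chst15, a sulfotransferase, had 3 counts in the 58 cells, and its summed level was 94.2 times higher in Nr2f2- no-marker neurons (95% counting interval 32.2 to 458; adjusted p = 0.0186). 4930447C04Rik had 2 counts, a ratio of 69.0 in favour of the Nr2f2- class (19.02 to 572; adjusted p = 0.0269). These intervals cover counting error only, and for these sparse genes fewer cells with the gene and less of it per cell cannot be told apart. Malat1, a nuclear non-coding RNA, passed at a log2 fold change of -0.32 ± 0.06 (adjusted p = 0.0330), which is about the median of all genes.

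Of the 18 genes, 17 went in 1 direction in each of the 9 samples. Of all genes tested, 26 were higher (0.287%) and 126 lower (1.39%) in 9 of 9. The sign of the 17 within date fields and animal numbers follows from their common direction. Syt4, the exception, was lower in each of the 3 date fields and 3 animal numbers as well. The ranges of the classes did not overlap for 7 of the 17 lower genes, and over all 9051 genes for 12 (0.133%). Since the 18 genes were selected by a test with the sample as a block, 17 of them for being lower, both counts only describe them. Median-of-ratios scaling gave 6 higher and 18 lower genes in place of 1 and 17, adding Ap1s2, Eif3f, Lsamp, mt-Nd1 and Ncald on the higher side. The number of calls moved with single samples: without sample 3 or without sample 6 none passed in either direction, and 4, 6, 8, 12, 4, 9 and 8 passed as lower without samples 1, 2, 4, 5, 7, 8 and 9. Arpp21, Chst15 and Man1a passed in 7 of these 9 fits. Wfs1 passed in 4, Pcp4 and Gnas in 3, and Gnal, Ppp1r1b, Gpr101 and Syt4 in 2. Akap5, Cadps2, Lhfpl5, Mpped1 and Malat1 passed in 1, and Atp2b1 and 4930447C04Rik in 0. Without Mbp-positive cells (8 samples) none passed at an adjusted p under 0.05, and 80 higher and 702 lower genes had an unadjusted p under 0.05.

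Of the list for striatal projection neurons, 1 gene of 6 tested passed, Ppp1r1b. All 6 had a fold change below 0, as had 74.4% of all genes tested, with a median log2 fold change of -2.05 against -0.37 over all genes. Its summed level was 149 to 530 CPM in Nr2f2+ no-marker neurons and 320 to 921 CPM in Nr2f2- no-marker neurons. By share of positive cells its members differed: Drd1a was positive in 0 of 58 and 19 of 208 cells, Pde10a in 14 and 57, and Rgs9 in 22 and 71. Neuropeptide precursors had a median of -1.97, with 6 tested and 0 passing, and Penk (proenkephalin), the most widespread of them, was positive in 49 of 58 and 163 of 208 cells. Of 23 imprinted genes tested Dlk1 rose and Gnas fell, and the list's median was -0.0049. Of 16 calcium-binding proteins 1 fell, Pcp4, and of 6 secreted modulators of Wnt, BMP and Notch signalling 1 rose, Dlk1. Of 29 forebrain transcription factors, 18 GABA and glycine receptors, 21 glutamate receptors, 30 potassium channels, 29 other ion channels, 12 neuropeptide receptors and 58 genes of axon guidance and adhesion, 0 passed. Their medians were -0.48, -0.57, -0.52, -0.85, -0.20, -0.75 and -0.64.

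The share of positive cells also differed for other genes. The genes in this paragraph were chosen after their values were seen, and shares were not tested. Crabp1, a binding protein of retinoic acid, was positive in 28 of 58 Nr2f2+ and 48 of 208 Nr2f2- no-marker neurons, and Cbln2, a secreted organiser of synapses, in 10 and 3. In the other direction Isl1, a LIM homeobox transcription factor, was positive in 1 and 32 cells and Foxp1, a forkhead transcription factor, in 9 and 78. In edgeR the log2 fold changes were 1.74 ± 0.53 for Crabp1, 4.32 ± 0.99 for Cbln2, -6.61 ± 1.30 for Isl1 and -1.84 ± 0.53 for Foxp1, and the adjusted p-values were 0.286, 0.106, 0.0521 and 0.257. When Isl1-positive cells were left out of the Nr2f2- class, Arpp21, Man1a, Ppp1r1b, Wfs1 and Malat1 still passed as lower and no gene passed as higher.

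**Figure D2:**
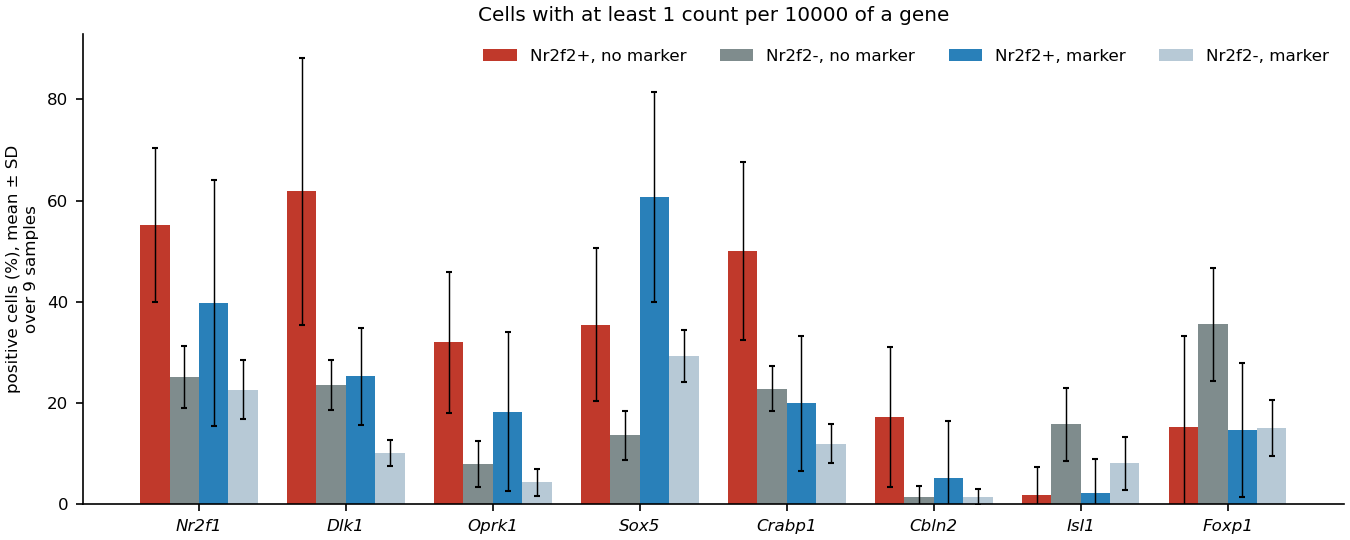
Share of positive cells (%, mean ± SD over 9 samples) for 8 genes in Nr2f2+ no-marker, Nr2f2- no-marker, Nr2f2+ marker and Nr2f2- marker neurons, from left to right. Crabp1 and Cbln2 were most frequent in the first class, whereas Sox5 was positive in more of the Nr2f2+ marker neurons, and Isl1 and Foxp1 were most frequent in Nr2f2- no-marker neurons.

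Of the 58 Nr2f2+ marker neurons, which share Nr2f2, 47 were positive for Prkcd. Against them, the Nr2f2+ no-marker neurons had more Chd6 and less Cartpt, Eepd1, Wfs1, Rap1gap, Ncdn and Itm2c. Of 7057 genes 1 passed as higher (0.0142%) and 6 as lower (0.085%), 0.0992% in all, and 170 (2.41%) and 173 (2.45%) had an unadjusted edgeR p under 0.05. Cartpt, the precursor of the neuropeptide CART, had 0, 2.44 and 41.7 CPM in Nr2f2+ no-marker neurons, against 90.5, 686 and 2571 CPM in Nr2f2+ marker neurons, with no overlap (log2 fold change -6.85 ± 0.72, edgeR adjusted p = 0.000408). Wfs1 averaged 230 ± 96.3 CPM in Nr2f2+ no-marker neurons and 778 ± 293 CPM in Nr2f2+ marker neurons (SD, n = 9; -1.79 ± 0.23, adjusted p = 0.00344). Rap1gap, which inactivates the small G protein Rap1, averaged 190 ± 44.6 and 677 ± 314 CPM without overlap (-1.78 ± 0.24, adjusted p = 0.00344). Ncdn (neurochondrin) and Itm2c passed with -1.64 ± 0.23 and -1.05 ± 0.16, and Eepd1 with -4.46 ± 0.67. Chd6, a chromatin remodeller, had 283, 362 and 468 CPM, against 106, 166 and 212 CPM, again without overlap (1.17 ± 0.19, adjusted p = 0.0183). Chd6 did not pass without samples 2, 3, 6 or 9, and Itm2c passed in only 5 of the 9 fits with 1 sample left out. Cartpt, Eepd1, Wfs1, Rap1gap and Ncdn passed in all 9 of these fits, and the number of lower genes was between 5 and 8. Dlk1 was positive in 35 of 58 Nr2f2+ no-marker and 14 of 58 Nr2f2+ marker neurons, with a fold change of 1.73 ± 0.47 that did not pass (adjusted p = 0.425). In Nr2f2- no-marker neurons Cartpt, Eepd1, Wfs1, Rap1gap, Ncdn and Itm2c averaged 108, 56.9, 512, 237, 696 and 1873 CPM. In Nr2f2- marker neurons they averaged 826, 320, 1091, 830, 2268 and 3825 CPM. By mean, these 6 genes were thus lower without a marker among Nr2f2-negative neurons as well, and the part of Prkcd was not tested.

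The same genes were then read among cells with a marker, in a fit over all 4 classes. Nr2f2+ and Nr2f2- marker neurons differed in their markers. Prkcd was positive in 81.0% and 60.9% of them, Sst in 13.8% and 28.8%, and Crh in 1.72% and 17.1%. Tac2 was positive in 3.45% and 22.2%, and Nts in 6.90% and 22.8%. A difference that goes with Nr2f2 and one that goes with the kind of marker cannot be told apart here. Nr2f2+ marker neurons differed from Nr2f2- marker neurons by 7 higher (0.0666%) and 154 lower (1.47%) of 10503 genes, 1.53% in all. A sample held 3 to 10 Nr2f2+ and 41 to 74 Nr2f2- marker neurons. No fit with equal cell numbers was made for these classes, so the part of unequal cell numbers in these calls was not tested. Of the 17 genes that passed as lower without a marker, 17 had a fold change below 0 here, as had 72.4% of all genes tested (median -0.31), and 11 passed. Among them were Arpp21 (-2.14 ± 0.36, edgeR adjusted p = 0.0016), Pcp4 (-3.13 ± 0.57, adjusted p = 0.0028), Akap5 (-2.42 ± 0.44, adjusted p = 0.0028), Gnas (-1.05 ± 0.24, adjusted p = 0.0146) and Ppp1r1b (-1.72 ± 0.41, adjusted p = 0.0225). Gnal (-1.03 ± 0.38), Gpr101 (-1.003 ± 0.85) and Cadps2 (-2.14 ± 1.36) did not pass. Dlk1 (1.25 ± 0.35, adjusted p = 0.0645), Nr2f1 (0.69 ± 0.37, adjusted p = 0.490) and Oprk1 (1.63 ± 0.81, adjusted p = 0.434) did not pass on the higher side.

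The difference between these Nr2f2 differences was tested itself, as an interaction. In edgeR 0 of 10503 genes passed in either direction (0%), and 287 (2.73%) and 177 (1.69%) had an unadjusted p under 0.05. For Dlk1 the difference was 0.18 ± 0.49 and for Arpp21 0.15 ± 0.49 on the log2 scale (adjusted p = 0.999 for both). With SEs of this size smaller differences were not detectable, and no difference was shown to be particular to neurons without a marker. Chd6 was higher in Nr2f2+ than in Nr2f2- neurons in 9 of 9 samples without a marker and lower in 9 of 9 with one, with an interaction of 1.09 ± 0.24 that did not pass (adjusted p = 0.162).

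**Figure D3:**
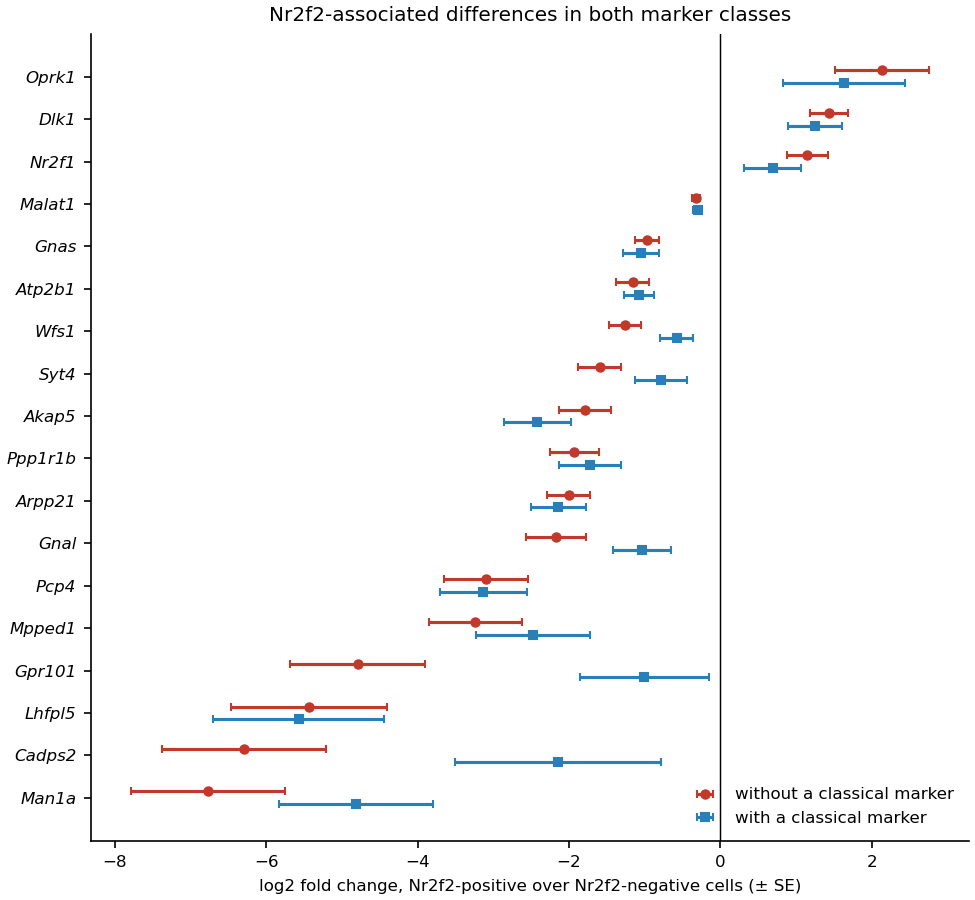
Log2 fold change ± SE of Nr2f2-positive over Nr2f2-negative neurons, without a classical marker (red circles) and with one (blue squares), for the genes that passed without a marker plus Nr2f1 and Oprk1, leaving out genes with 3 or fewer counts in Nr2f2+ no-marker neurons. Both estimates have the same sign for every gene drawn, and the SE bars are widest for the sparse genes at the bottom.

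Genes that passed among cells with a marker were read in the 58 cells as well. Myh7, a myosin heavy chain, was higher in Nr2f2+ than Nr2f2- marker neurons (1.70 ± 0.32, edgeR adjusted p = 0.0036) and averaged 245 ± 80.5 CPM in Nr2f2+ no-marker neurons and 153 ± 54.5 CPM in Nr2f2- no-marker neurons (SD, n = 9; 0.67 ± 0.22, adjusted p = 0.308). Nr3c1, the glucocorticoid receptor, averaged 249 ± 119 and 138 ± 58.7 CPM without a marker (0.79 ± 0.26, edgeR adjusted p = 0.328), beside a difference of 1.05 ± 0.24 with a marker (adjusted p = 0.0143). Tmem90b, Efnb3 and Pcsk1n, also higher on the marker side, had fold changes of 0.82 ± 0.49, 0.41 ± 0.23 and 0.34 ± 0.09 without a marker, none of which passed. The 6 lower genes with the largest fitted fold on the marker side, Akap12, Car8, Cxcl14, Hyls1, 2610017I09Rik and Gm9725, had 0 counts in Nr2f2+ marker neurons. They had 52, 0, 41, 45, 18 and 0 counts in Nr2f2+ no-marker neurons, with 1, 0, 1, 2, 1 and 0 positive cells of 58. In the 208 Nr2f2- no-marker neurons they had 201, 25, 236, 341, 482 and 148 counts.

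The 58 cells fell in several clusters. Clustering of all inhibitory neurons, with the 11 genes of the rule left out, gave 10 clusters, and Nr2f2+ no-marker neurons fell in 6 of them. Cluster 3, which held 90 cells, took 36 of the 58 (62.1%), from 9 of 9 samples, against 27 of the 208 Nr2f2- no-marker neurons (13.0%). Cluster 9 took 10 of them from 6 samples, cluster 6 took 5, cluster 1 took 4, cluster 4 took 2 and cluster 2 took 1. Clusters are named by number, and since the genes below took part in the clustering they are given as a description.

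Within cluster 3, Crabp1 was positive in 25 of the 36 Nr2f2+ no-marker neurons, Nr2f1 in 25, Dlk1 in 24, Oprk1 in 17 and Sox5 in 17, and Arpp21 in 6. All 17 Oprk1-positive cells of the class were thus in cluster 3. Within cluster 9, Dlk1 was positive in 9 of 10 and Arpp21 in 8 of 10, while Oprk1 and Sox5 were positive in 0. The 5 cells in cluster 6 were all positive for Pax6, Penk and Calb1 (calbindin), 4 of them for Cck (cholecystokinin), Ppp1r1b and Arpp21, and 0 for Dlk1, Crabp1 and Sox5. The 4 cells in cluster 1 had 0 positive for Penk, Dlk1 and Ppp1r1b, and 2 positive for Cbln2. Dlk1 was therefore frequent in clusters 3 and 9, and Oprk1, Sox5 and Crabp1 mainly in cluster 3. Of the 18 Sox5-positive cells of the class, 15 were also positive for Dlk1.

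**Figure D4:**
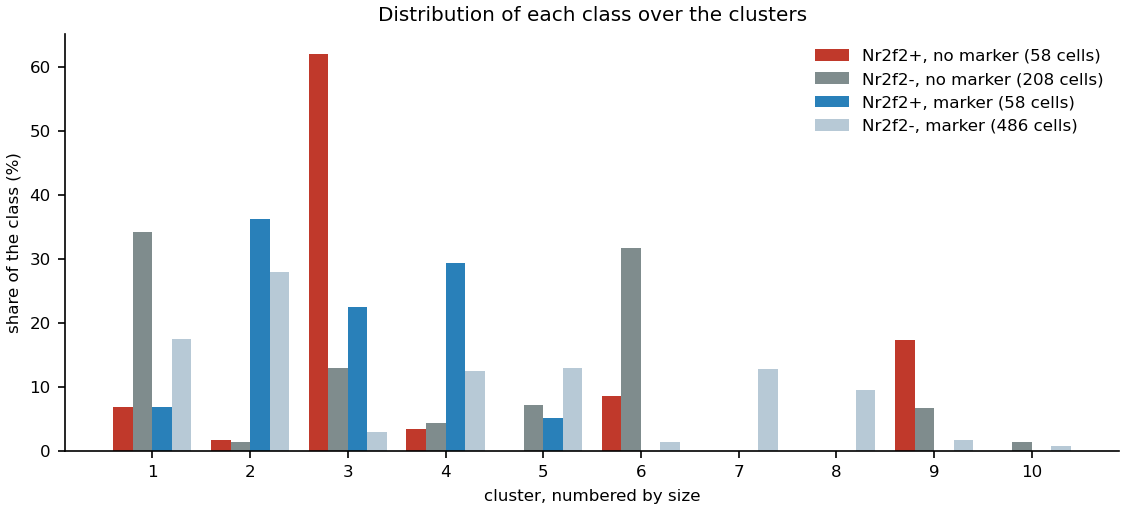
Share of each class (%) in the 10 clusters built without the genes that define the classes. Of the Nr2f2+ no-marker neurons (red) 62.1% were in cluster 3 and 17.2% in cluster 9, whereas Nr2f2- no-marker neurons (grey) were mostly in clusters 1 and 6.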

How the data were processed

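The file deposited by the authors holds unnormalized counts, with gene symbols down and cells across (22601 genes, 22299 with a count, and 91 spike-ins left out here), with a cell table that maps each cell to its sample, per the file headers. The genome build was NCBIM37 and Seurat was used, per the submitters' processing notes. No label or header names an aligner, a strand setting or molecular identifiers, so genes that overlap another gene in RefSeq (among those named first Arpp21, Cadps2, Chst15, Gnal, Gnas, Malat1, Man1a, Mpped1, Ppp1r1b, Nr2f1 and Nr2f2) may hold reads of it, and counting intervals cover counting error only. Samples held 8522750 to 22730327 gene counts. Of 376 barcodes 368 occur in more than 1 sample, so cells were told apart by sample and barcode. All deposited cells were kept, without a filter on depth or a doublet caller.

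The cells, gene lists and named genes were chosen with earlier results of these data known. Sums of counts were made for each class in each sample where both classes had at least 3 cells, which held for 9 of 9 samples. The sums were tested with edgeR 4.0.16 in R 4.3.3 (TMM scaling, filterByExpr, quasi-likelihood test). That test gives no SE. The SE printed is the absolute log2 fold change divided by the square root of the F statistic of the test. The sample is a block because every sample gives cells of both classes. The 11 genes of the rule stayed in the sums and got no p-value. Named genes are up to 12 per side by fold among those that passed at 10 CPM or more and moved the same way in all samples but at most 1, up to 3 per list, and Nr2f1, Oprk1 and Dlk1. For the other comparisons up to 6 per side are named. Atp2b1, Malat1, Syt4, Sox5, Ncald and the genes named for their shares or clusters fall outside this and were chosen after their values were seen. The lists held 547 genes, 528 in the table, 3 by an older symbol. Clusters are Leiden clusters from 2000 variable genes and 30 components, with 15 neighbours at resolution 1 (scanpy 1.11.5 with igraph 0.11.9). Thinning used seed 7.

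On simulated sums the first comparison recovered 10% of genes changed 2-fold and 44% of those changed 4-fold with 1 false call over 9055 genes, that with Nr2f2+ marker neurons 11% and 35% over 7063, and the interaction 5% and 20% over 10512. In the simulation a gene had the same dispersion in all classes, and as many genes were raised as lowered. It therefore does not show how many false calls unequal cell numbers give. Alternatives tried were median-of-ratios scaling, DESeq2 1.42.0, limma 3.58.1 on the mean CPM of cells, no filter, no sample block, other cutoffs for positive cells and cell numbers, thinned counts, equal cell numbers, leaving out shallow or Mbp-positive cells, and each sample left out. Chosen after the data were seen were the comparison without Isl1-positive cells and the alternatives for cells with a marker.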

Additional observations from a re-analysis of the deposited data

Results flagged for a closer look

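In 10 of 49 groups of 9 samples 1 sample stood far from the other 8 (a gap to its nearest neighbour above Dixon's 95% critical value). Chance gives this in about 1 in 20 groups only where values are normally distributed. In Nr2f2+ no-marker neurons these were Man1a at 9.68 CPM in sample 7, 4930447C04Rik at 4.20 CPM in sample 1, Cadps2 at 12.2 CPM in sample 9, Lhfpl5 at 8.78 CPM in sample 8 and Gnal at 168 CPM in sample 2. All 5 were the highest sample of a gene that passed as lower. Man1a, 4930447C04Rik, Cadps2 and Lhfpl5 had a median of 0 CPM there, from 6, 2, 17 and 10 counts in all. The rate of 1 in 20 does not apply to such sparse values, so the number flagged is not an excess over chance. Sample 3 had the fewest genes per cell at equal depth, 3472, and sample 7 the most Mbp-positive cells, 83.3%. In Nr2f2- no-marker neurons the far samples were Lhfpl5 at 49.0 CPM in sample 8, Akap5 at 252 CPM in sample 7 and Wfs1 at 782 CPM in sample 7.

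Chd6 was higher in Nr2f2+ than in Nr2f2- neurons in 9 of 9 samples without a marker and lower in 9 of 9 samples with a marker. The difference between both log2 fold changes was 1.09 ± 0.24 and did not pass in edgeR (adjusted p = 0.162).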

How the results depend on the processing

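For Nr2f2+ against Nr2f2- no-marker neurons, 1 higher and 17 lower genes became 6 and 18 with median-of-ratios scaling, 57 and 519 with DESeq2, 15 and 155 with limma on mean CPM, 2 and 31 with no filter, and 3 and 23 with thinned counts. They became 0 and 0 when positive meant 1 count (5 samples) or 3 counts per 10000 (6 samples), 1 and 2 at 5 cells or more per class (6 samples), 0 and 1 with equal cell numbers, 0 and 0 without Mbp-positive cells, and 0 and 5 without Isl1-positive cells. Leaving out 1 sample gave 0 to 2 higher and 0 to 12 lower genes. Without the sample as a block, the pairing of classes within samples, 3 and 11 genes passed here, 2 and 11 against Nr2f2+ marker neurons and 12 and 104 among cells with a marker, where Cadps2 then had a log2 fold change of 1.42. Against Nr2f2+ marker neurons, 1 and 6 became 15 and 35 with no filter, 0 and 3 at 5 cells or more (5 samples) and 0 and 6 without Mbp-positive cells (7 samples), with 0 to 2 higher and 5 to 8 lower when 1 sample was left out. Among cells with a marker, 7 and 154 became 21 and 134 with median-of-ratios scaling, 2 and 266 with no filter, 0 and 0 at 5 cells or more, and 2 and 164 without Mbp-positive cells, with 3 to 12 and 90 to 161 when 1 sample was left out. The interaction gave 0 higher genes in each fit and 0 to 1 lower genes when 1 sample was left out. Its value for Dlk1 was -0.26 at 5 cells or more and -0.096 to 0.45 with 1 sample left out, and for Arpp21 -0.49, -0.047 without Mbp-positive cells, and -0.039 to 0.45. No depth measure passed with 1 sample left out, but the difference in Mbp-positive cells ranged from -6.55 to 7.28 percentage points and was below 0 without sample 7, and that in genes per cell was -56.6 without sample 3, against -137.5 with all samples. The cause of these changes was not tested.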
